A study of Homo sapiens with 12 samples.

Results

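FaDu and Cal27 are established squamous carcinoma lines of the head and neck (HNSCC), the first grown from a tumour of the hypopharynx and the second from a tumour of the tongue. The parental cells of each line had not been made resistant to any drug, and their labels give the genotype as WT and the cell type as tumour. Each line was sequenced in 2 libraries from separate biological replicates, and these 4 libraries, of 12 in the whole series, were chosen by the treatment label Parental. The other 8 libraries come from cells of the same lines selected for resistance to afatinib, a pan-ERBB inhibitor, or erlotinib, an EGFR inhibitor, and serve here only to show which line differences recurred in them. FaDu cells were kept in EMEM and Cal27 cells in DMEM, both with serum and antibiotics, so an effect of the line and an effect of its medium cannot be told apart. All 12 libraries carry the same batch date. Each group is 1 cell line from 1 tumour, so p-values measure the spread between cultures of that line and not between tumours of the tongue and the hypopharynx. The comparison asks how far apart the starting points of the resistant models lay.

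Squamous carcinomas of the head and neck arise from the stratified lining of the mouth and throat. Basal cells of that lining express the transcription factor p63 and the keratins KRT5 and KRT14, and cells moving towards the surface turn on other keratins, proteases of the kallikrein family and cornified envelope proteins. EGFR signalling drives growth of these tumours, and recurrent changes include gain of CCND1 with its neighbours on 11q13, gain of SOX2 and TP63 on 3q, loss of CDKN2A and loss of SMAD4 with other genes of 18q. AURKA, which builds the mitotic spindle, and WEE1, which holds back CDK1 until DNA is replicated, are the drug targets the study was built around.

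The 4 libraries held 21867912 and 20441530 counts on genes in FaDu and 16623634 and 16426056 in Cal27. Replicates of a line correlated at 0.989 in FaDu and 0.986 in Cal27 over the log2 values of tested genes, and libraries of different lines at 0.854 to 0.870, values given as a description since genes are not independent. Both lines carried the squamous markers. All 12 markers on the list for squamous epithelium were detected in every library, and their summed level was 4363 to 5676 CPM (reads of a gene relative to its library's total, after TMM scaling) in Cal27 and 6897 to 11256 CPM in FaDu. Markers of other cell types were low: the summed level of 9 fibroblast genes was 29.7 and 41.3 CPM in Cal27 and 4.63 and 5.46 CPM in FaDu, that of 11 immune genes 15.1 to 21.1 CPM in all 4 libraries, and FAP, CD3D, CD2 and MS4A1 had no count in any of them. In bulk RNA, fewer cells of a kind and less RNA per cell cannot be told apart.

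Of 55073 autosomal genes listed, 14454 were abundant enough to test. Counts were compared with edgeR's quasi-likelihood test, and a gene was called when its Benjamini-Hochberg adjusted p was under 0.05 and its log2 fold change, always Cal27 over FaDu, was over 1 in size. The lines differed at 4789 genes, 33.1% of those tested. Of all tested genes, 20.2% (2913) were called higher in Cal27 and 13.0% (1876) were called higher in FaDu. The log2 fold change was over 3 in size for 1136 called genes, 800 of them higher in Cal27 and 336 higher in FaDu. The libraries of the lines did not overlap at 81.8% of all tested genes, so a lack of overlap on its own marks little here. Among 1223 long noncoding RNAs, 406 were called higher in Cal27 and 165 higher in FaDu. The balance of directions depended on the scaling. The ERCC spike-ins took 5.79% and 5.82% of reads in FaDu and 4.45% and 4.25% in Cal27. With libraries scaled to them, the median log2 fold change of all tested genes moved from 0.02 to 0.61. With that scaling 4984 genes were called higher in Cal27 against 848 in FaDu. Directions below are relative to the bulk of genes. A sign or a balance of calls that turned under spike-in scaling is marked. Of 230 called genes named by the rule given below, 35 lost their call under spike-in scaling. The loss of a single call is marked for some genes only.

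**Figure D1:**
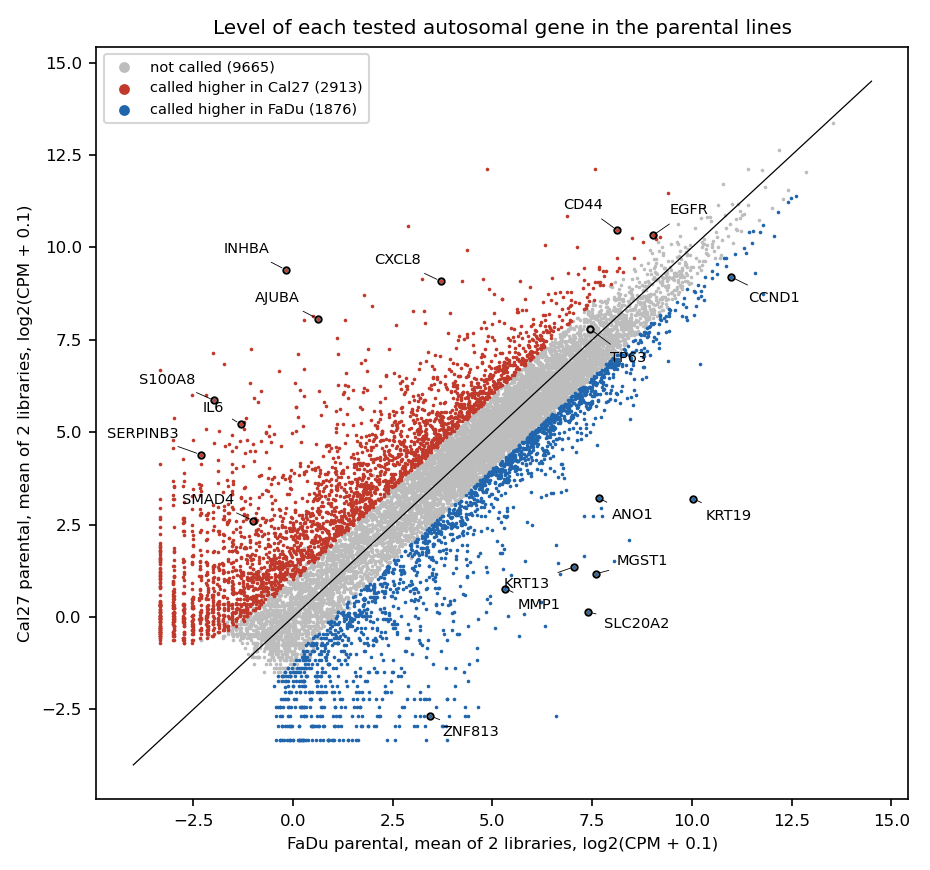
Mean level of the 14454 tested autosomal genes in FaDu (horizontal axis) and Cal27 (vertical axis), each the mean of 2 libraries on the log2(CPM + 0.1) scale, with called genes in colour and the diagonal marking equal levels. INHBA, AJUBA and S100A8 lie far above the diagonal and KRT19, MGST1 and SLC20A2 far below it, while TP63 lies near it.

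The ERBB family comprises EGFR and its relatives ERBB2, ERBB3 and ERBB4, which are switched on by ligands of the EGF and neuregulin type. EGFR (ENSG00000146648, chromosome 7, 55019021 to 55211628 on GRCh38) had 1301 and 1272 CPM in Cal27 and 542 and 499 CPM in FaDu. Its level was higher in Cal27 in each library, with a log2 fold change of 1.31 (standard error of the log2 fold change, SE, 0.101, with an edgeR adjusted p = 2.68e-05). ERBB2 had 55.8 and 65.6 CPM in Cal27 and 97.5 and 93 CPM in FaDu, a log2 fold change of -0.65 that did not pass the fold limit. ERBB3 had 28.1 and 45.3 CPM in Cal27 and 46.9 and 38 CPM in FaDu, with overlapping libraries and an adjusted p of 0.435 in the same test. Of the ligands, HBEGF, an EGFR ligand shed from the cell surface, had 41.5 and 51.1 CPM in Cal27 and 6.55 and 6.49 CPM in FaDu (log2 fold change 2.83). EGF itself was low, with 1.43 and 1.85 CPM in Cal27 and 0.0964 and 0.206 CPM in FaDu. The neuregulin NRG4 went the other way, with 0.172 and 0.0577 CPM in Cal27 and 4.38 and 4.74 CPM in FaDu, and so did the ligand BTC (log2 fold change -1.70). Proteins that restrain the receptors were also unequal: LRIG1 and ERRFI1, which limit EGFR activity, were higher in Cal27 by 3.38 and 1.88 on the log2 scale, and CBL, the ubiquitin ligase that removes activated EGFR, was higher in FaDu (log2 fold change -1.65). Over the whole list of ERBB receptors, ligands and inhibitors, 10 of 28 tested genes were called higher in Cal27 and 3 higher in FaDu, and the list's median log2 fold change was 0.03 beside 0.02 for all tested genes.

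Of other receptor tyrosine kinases and their ligands, 20 of 56 tested genes were called higher in Cal27 and 10 higher in FaDu. MET, the receptor of hepatocyte growth factor, had 477 and 534 CPM in Cal27 and 238 and 197 CPM in FaDu (log2 fold change 1.22, SE 0.124, edgeR adjusted p = 9.86e-05). AXL had 512 and 340.3 CPM in Cal27 and 154 and 191 CPM in FaDu (log2 fold change 1.31), and its ligand GAS6 differed by more, with 241 and 259 CPM in Cal27 and 9.44 and 10.3 CPM in FaDu (log2 fold change 4.67). IGFBP3, a secreted binder of insulin-like growth factors, gave one of the 10 largest differences per transcript length towards Cal27, at 2211 and 6643 CPM against 32.4 and 25.2 CPM in FaDu, with replicate 2 well above replicate 1. FaDu had the higher levels of PDGFD, PDGFA and FGFR1 (log2 fold changes -6.45, -3.13 and -1.66).

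Downstream, genes of the RAS, ERK and PI3K pathway had the smallest share of calls among the signalling lists, with 6 called in each direction out of 47 (13 higher in Cal27 and 2 higher in FaDu with spike-in scaling). NRAS had 124 and 117 CPM in Cal27 and 250.0 and 244 CPM in FaDu, and its log2 fold change of -1.03 was just past the limit. It was no longer called with upper-quartile or spike-in scaling or without Cal27 replicate 2. HRAS (-0.47) and PIK3CA (-0.22) were not called, and the sign of both turned under spike-in scaling. Genes that report ERK activity did not move one way. DUSP4, SPRY1 and HMGA2 were higher in Cal27 (log2 fold changes 2.38, 4.14 and 3.20), while DUSP6, the phosphatase induced by ERK, had 19 and 15 CPM in Cal27 and 43.2 and 51.8 CPM in FaDu (log2 fold change -1.48). In all, 11 of 37 genes of ERK output were called higher in Cal27 and 6 higher in FaDu, beside 20.2% and 13.0% of all tested genes.

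**Figure D2:**
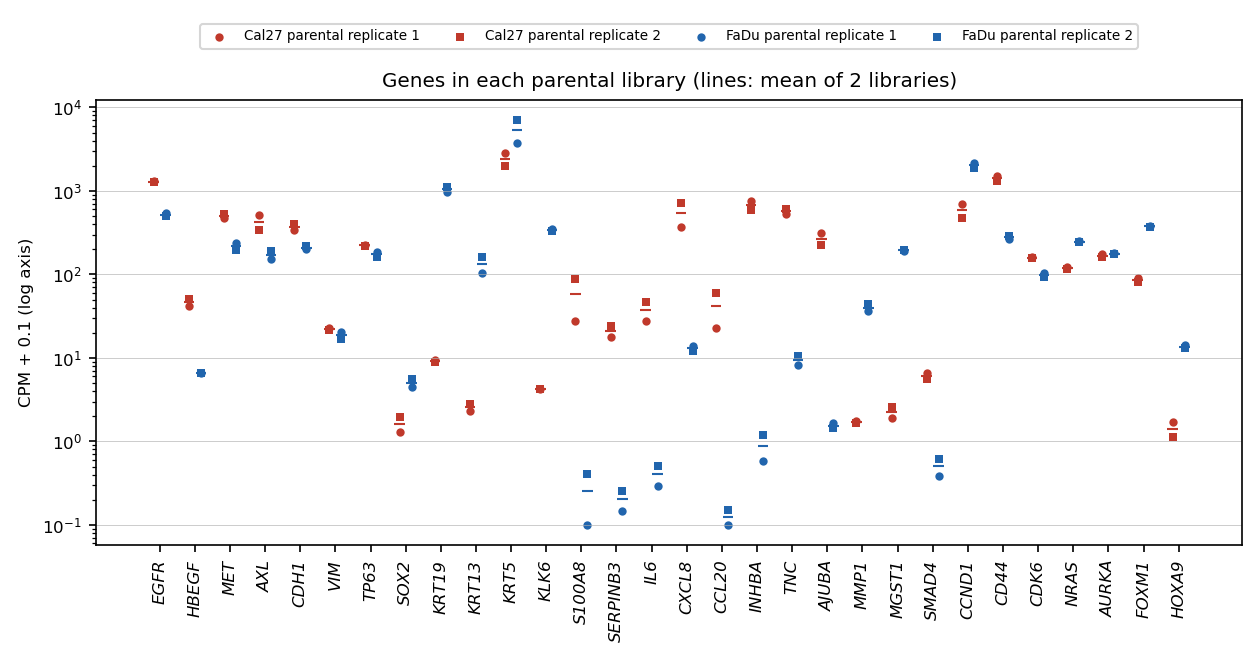
CPM plus 0.1 on a log axis for 30 genes named in the text, with Cal27 replicates in red and FaDu replicates in blue (circles replicate 1, squares replicate 2) and short lines at the mean of 2 libraries. Replicates of a line lie close together for most genes, the lines are apart by a wide margin at KRT19, INHBA and AJUBA, and they overlap or nearly so at VIM and AURKA.

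Mitotic genes had more calls in FaDu than in Cal27 under TMM scaling. AURKA had 176 and 159.6 CPM in Cal27 and 178 and 173 CPM in FaDu, overlapping between the lines, with a log2 fold change of -0.07 (edgeR adjusted p = 0.599), which was 0.52 under spike-in scaling. Its activator TPX2 had 269 and 222 CPM in Cal27 and 579.9 and 571 CPM in FaDu (log2 fold change -1.23, SE 0.118, edgeR adjusted p = 7.25e-05). The TPX2 call was lost under spike-in scaling. FOXM1, the transcription factor of G2 and M phase genes, had 90.6 and 81.4 CPM in Cal27 and 381 and 371 CPM in FaDu (log2 fold change -2.13), and BIRC5, PLK1 and CCNB1, which act in chromosome segregation and mitotic entry, were also higher in FaDu (-1.87, -1.39 and -1.07). WEE1 had 36.7 and 43.8 CPM in Cal27 and 29.2 and 25.8 CPM in FaDu and its target CDK1 94.8 and 87.7 CPM in Cal27 and 157 and 129.7 CPM in FaDu, and neither passed the fold limit. Of 48 genes on the list, 13 were called higher in FaDu and 2 in Cal27, and 41 had a log2 fold change below 0 (median -0.53 beside 0.02 for all tested genes). With spike-in scaling the median was 0.06, with 4 genes called higher in Cal27 and 3 in FaDu, so the difference depended on the scaling. The 2 genes higher in Cal27 both encode scaffold proteins that bind AURKA. NEDD9 had 7.21 and 16.2 CPM in Cal27 and 2.31 and 3.86 CPM in FaDu (log2 fold change 1.92), a call lost without FaDu replicate 1. AJUBA (ENSG00000129474, chromosome 14, 22971174 to 22982642 on GRCh38), also a LIM protein of cell junctions that acts in the Hippo pathway, had 314 and 223 CPM in Cal27 and 1.54 and 1.34 CPM in FaDu, a log2 fold change of 7.53, and 7.89 and 7.28 in the afatinib-resistant and erlotinib-resistant pairs of lines.

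Of G1 cell cycle and apoptosis genes, 8 of 37 were called higher in Cal27 and 5 higher in FaDu. The 35.1% called either way was near the 33.1% of all tested genes. CCND1, the G1 cyclin, had 698 and 478 CPM in Cal27 and 2166 and 1897 CPM in FaDu. BBC3, which promotes apoptosis, was higher in Cal27 (log2 fold change 2.84). CDKN2A had 33.9 and 41.1 CPM in Cal27 and 29 and 31.5 CPM in FaDu and was not called, whereas the neighbouring inhibitor CDKN2B had 22.3 and 33 CPM in Cal27 and 3.81 and 3.50 CPM in FaDu (log2 fold change 2.92), though its reads may be shared with the antisense CDKN2B-AS1. MYC and CDK6 passed the p limit but not the fold limit (log2 fold changes 0.47 and 0.70).

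The squamous programme differed in its parts rather than as a whole. TP63 had 227 and 221 CPM in Cal27 and 184 and 162 CPM in FaDu, a log2 fold change of 0.37 that did not pass the fold limit, and KRT14 had 267 and 110.5 CPM in Cal27 and 114 and 316 CPM in FaDu, with overlapping libraries and replicates of each line far apart. The simple keratin KRT19 and the mucosal keratins KRT13 and KRT4 were far higher in FaDu. KRT19 (ENSG00000171345, chromosome 17, 41523617 to 41528308 on GRCh38) had 9.27 and 8.94 CPM in Cal27 and 968 and 1127 CPM in FaDu (log2 fold change -6.84, SE 0.145, edgeR adjusted p = 2.37e-07). KRT13 and KRT4, the keratin pair of non-keratinizing mucosa such as that of the oesophagus and inner cheek, had 2.23 and 2.71 CPM in Cal27 and 103 and 162 CPM in FaDu and 0.0572 and 0.0577 CPM in Cal27 and 77.2 and 115 CPM in FaDu. KRT8 and KRT18, which pair in simple epithelia, were higher in FaDu by smaller amounts (-1.74 and -1.32), and the KRT18 call was lost under spike-in scaling. KRT5 was called higher in FaDu with 2813 and 1972 CPM in Cal27 and 3742 and 7033 CPM in FaDu, a call lost under spike-in scaling and without FaDu replicate 2 or Cal27 replicate 2. In the other direction KRT6B, a keratin of activated keratinocytes, had 47.5 and 80.2 CPM in Cal27 and 0.193 and 0.0515 CPM in FaDu, though reads of KRT6A, KRT6B and KRT6C may be shared between these near-identical genes. Of 24 keratins, 5 were called higher in Cal27 and 9 in FaDu, a balance that turned to 8 and 5 with spike-in scaling. Of the 12 squamous markers, edgeR called 4 higher in FaDu (PKP1, KRT17, SFN and KRT5) and 0 higher in Cal27, with 3 higher in Cal27 at an unadjusted p under 0.05 and 0 by DESeq2. With spike-in scaling the balance turned to 2 higher in Cal27 and 1 higher in FaDu, and without Cal27 replicate 2 it was 1 and 2.

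Differentiation genes split by family, with 9 of 24 called in each direction (11 higher in Cal27 and 5 higher in FaDu with spike-in scaling). FaDu had the kallikrein proteases KLK6 and KLK10, at 351 and 335 CPM and 199 and 169 CPM against 4.18 and 4.10 CPM and 4.00 and 9.06 CPM in Cal27, together with the cross-linking enzyme TGM1 (log2 fold change -4.01). Cal27 had the calcium-binding alarmins S100A8 and S100A9 and the elastase inhibitor PI3, with 27.3 and 88.9 CPM, 89.5 and 286 CPM and 8.98 and 17.2 CPM against at most 2.12 CPM of any of them in a FaDu library. Junction genes also split. The desmosomal plakophilin PKP1 had 16 and 11 CPM in Cal27 and 104 and 116 CPM in FaDu, and DSG1 had 0.626 and 0.979 CPM in FaDu with no count in Cal27. CDH1, which encodes E-cadherin, had 343 and 403 CPM in Cal27 and 199 and 219.8 CPM in FaDu and did not pass the fold limit (0.83), while CDH2, which encodes N-cadherin, had 55.1 and 53.6 CPM in Cal27 and 14.1 and 20.6 CPM in FaDu (log2 fold change 1.65). CDH5, the cadherin of endothelium, had 29.7 and 30.4 CPM in Cal27 and 1.35 and 3.56 CPM in FaDu. It was the only 1 of 3 tested endothelial markers that was called. All 7 markers on that list summed to 31.4 and 32.8 CPM in Cal27 and 3.47 and 6.03 CPM in FaDu. Of the others, KDR and EMCN had 0 counts in Cal27. Among claudins, CLDN1 was higher in Cal27 and CLDN7 in FaDu (3.76 and -2.20).

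Among transcription factors of the squamous lineage, 6 of 29 were called higher in Cal27 and 5 higher in FaDu (9 and 2 with spike-in scaling). The 37.9% called either way was near the 33.1% of all tested genes. PAX9, a factor of the oral and pharyngeal lining, had 10.8 and 7.84 CPM in Cal27 and 78.2 and 70.9 CPM in FaDu (log2 fold change -2.997), and SOX2 was low but higher in FaDu, with 1.20 and 1.85 CPM in Cal27 and 4.34 and 5.41 CPM in FaDu. EHF, an epithelial ETS factor, had 484 and 606 CPM in Cal27 and 20.0 and 17.6 CPM in FaDu (log2 fold change 4.86). Of the HOX genes, which mark position along the body axis, 13 of 30 were called higher in FaDu and 0 higher in Cal27 by edgeR (2 higher in Cal27 at an unadjusted p under 0.05, 0 by DESeq2). With spike-in scaling 6 were called higher in FaDu and 3 higher in Cal27. HOXB4 had 0.343 and 0.635 CPM in Cal27 and 8.62 and 10.0 CPM in FaDu and HOXA9 1.60 and 1.04 CPM in Cal27 and 14 and 13.1 CPM in FaDu. The median over the 30 was -0.81, and -0.22 with spike-in scaling.

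Matrix and mesenchymal genes lay higher in Cal27. Of 47 on the list of mesenchymal and EMT genes, 22 were called higher in Cal27 and 4 higher in FaDu, with a median log2 fold change of 1.00. INHBA (ENSG00000122641, chromosome 7, 41667168 to 41705834 on GRCh38), which encodes the subunit of activin A, had 757 and 591 CPM in Cal27 and 0.482 and 1.08 CPM in FaDu (log2 fold change 9.75, SE 0.276, edgeR adjusted p = 3.85e-07). TNC, an adhesion-modulating matrix glycoprotein, had 527 and 611 CPM in Cal27 and 8.19 and 10.4 CPM in FaDu, SPARC, a collagen-binding protein, 401 and 443 CPM in Cal27 and 3.04 and 3.61 CPM in FaDu, and fibronectin FN1 283 and 317 CPM in Cal27 and 15.2 and 15.3 CPM in FaDu. THBS1, a matrix protein that can activate latent TGF-beta, reached 5123 and 3729 CPM in Cal27 against 197 and 186 CPM in FaDu. The intermediate filament VIM, however, had 22.6 and 21.6 CPM in Cal27 and 20.6 and 16.8 CPM in FaDu, with no call, and the factor SNAI2 had 32.3 and 29.7 CPM in Cal27 and 43.4 and 48.8 CPM in FaDu, short of the fold limit and with a sign that turned under spike-in scaling. TWIST2, a mesenchymal transcription factor, was found in FaDu at 12.8 and 15.5 CPM with a single count over both Cal27 libraries. Of the fibroblast markers counted above, 3 of 5 tested were called higher in Cal27. COL1A1 made up most of the sum, with 24.9 and 35.1 CPM in Cal27 and 2.79 and 4.12 CPM in FaDu. COL1A2 had 1.54 and 2.77 CPM in Cal27 and 0.530 and 0.464 CPM in FaDu (log2 fold change 2.10), a call lost without Cal27 replicate 2. PDGFRB had 1.77 and 1.44 CPM in Cal27 and 0.145 and 0 CPM in FaDu (4.32). DCN, a defining fibroblast gene, had 1 count in each Cal27 library and 0 in FaDu. Integrins and laminins showed 10 of 25 higher in Cal27 and 2 higher in FaDu, among them ITGB6, ITGB8 and LAMA4 (2.75, 3.30 and 5.66), the subunits ITGB6 and ITGB8 being those of integrins that release active TGF-beta.

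Matrix proteases and their inhibitors were called in both directions, more often higher in Cal27. MMP1, the interstitial collagenase, had 1.66 and 1.56 CPM in Cal27 and 36.2 and 43.7 CPM in FaDu, and MMP13 and MMP10 were likewise higher in FaDu (-4.68 and -3.68). MMP7, matrilysin, from the same cluster on chromosome 11, had 29.2 and 60.9 CPM in Cal27 and 4.29 and 4.69 CPM in FaDu (log2 fold change 3.33). Cal27 had the serine protease PLAT, the inhibitor TIMP2 and the serpins SERPINB3 and SERPINB4, with 17.8 and 24.1 CPM of SERPINB3 against 0.0482 and 0.155 CPM in FaDu, where reads of the serpin pair may be shared between near-identical copies. Over the list, 17 of 38 were called higher in Cal27 and 5 higher in FaDu, beside 20.2% and 13.0% of all tested genes. The share higher in FaDu was thus near that of all tested genes. All 5 genes called higher in FaDu were MMP genes of that cluster.

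Of TGF-beta and BMP genes, 12 of 45 were called higher in Cal27 and 7 higher in FaDu, in all 42.2% beside 33.1% of all tested genes. The ligand TGFB2 had 85.9 and 101 CPM in Cal27 and 5.06 and 4.79 CPM in FaDu (log2 fold change 4.25), TGFB1 37.7 and 34.9 CPM in Cal27 and 76.5 and 87.5 CPM in FaDu (-1.17, a call lost under spike-in scaling) and BMP7 1.09 and 1.33 CPM in Cal27 and 29.9 and 30.8 CPM in FaDu (-4.65). SMAD4, the common partner of the receptor-activated SMAD proteins, had 6.46 and 5.54 CPM in Cal27 and 0.289 and 0.515 CPM in FaDu (log2 fold change 3.89), while SMAD2 was not called. In WNT and NOTCH signalling, 13 of 56 were called higher in Cal27 and 9 higher in FaDu. The 39.3% called either way was near the 33.1% of all tested genes. The called genes included the NOTCH coactivator MAML2, with 43.8 and 45.7 CPM in Cal27 and 2.12 and 2.78 CPM in FaDu. They also included the ligand WNT10B, with 0.744 and 0.346 CPM in Cal27 and 10.5 and 10.2 CPM in FaDu.

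On the list of cytokines, chemokines and NF-kB, 40 of 56 tested genes were called higher in Cal27 and 3 higher in FaDu (median log2 fold change 2.12 beside 0.02 for all tested genes). NF-kB is a family of transcription factors that inflammatory signals release from their inhibitor to turn on cytokine genes and, in a feedback loop, the inhibitor itself. The neutrophil chemokines CXCL1, CXCL2, CXCL3 and CXCL8, neighbours on chromosome 4, were all higher in Cal27. CXCL1 had 184 and 494 CPM in Cal27 and 3.85 and 3.86 CPM in FaDu and CXCL8 368 and 722 CPM in Cal27 and 13.9 and 11.9 CPM in FaDu (log2 fold changes 6.46 and 5.40). CXCL2 had 20.5 and 31.1 CPM in Cal27 and 0.482 and 0.309 CPM in FaDu. IL6 had 27.5 and 46.8 CPM in Cal27 and 0.193 and 0.412 CPM in FaDu (log2 fold change 6.93, SE 0.411, edgeR adjusted p = 8.23e-06), and TNF 19.9 and 23.2 CPM in Cal27 and 0 and 0.670 CPM in FaDu. CCL20, which draws dendritic and T helper cells, had 23 and 60.1 CPM in Cal27 and a single count over both FaDu libraries. The receptor IL1R1 had 30.3 and 52.4 CPM in Cal27 and 0.434 and 0.258 CPM in FaDu. Of feedback genes of the pathway, BIRC3 had 77.9 and 167 CPM in Cal27 and 9.93 and 10.0 CPM in FaDu and the inhibitor NFKBIA 157 and 212 CPM in Cal27 and 63.1 and 65 CPM in FaDu. The 3 genes higher in FaDu were IL36RN, LIFR and IL18, and the IL18 call was lost under spike-in scaling. Cal27 replicate 2 held more of most of these transcripts than replicate 1, and without replicate 2 the counts were 38 and 3 with a median of 1.77.

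Promoters of 5 of these genes are printed to show the NF-kB binding letters next to the genes that differed together. They are the 250 bases before each RefSeq start on GRCh38.p14, written 5′ to 3′ on the strand of the gene, with letters that match the NF-kB consensus on either strand in capitals. The spans are chr4:73869143-73869392 (plus strand) for CXCL1, chr4:74099196-74099445 (minus) for CXCL2, chr2:227813592-227813841 (plus) for CCL20, chr7:22726950-22727199 (plus) for IL6 and chr11:102317234-102317483 (plus) for BIRC3.
CXCL1: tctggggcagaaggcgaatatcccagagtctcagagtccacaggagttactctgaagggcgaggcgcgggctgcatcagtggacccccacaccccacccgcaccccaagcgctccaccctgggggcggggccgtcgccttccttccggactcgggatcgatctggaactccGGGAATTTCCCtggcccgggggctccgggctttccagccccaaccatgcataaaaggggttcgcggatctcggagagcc
CXCL2: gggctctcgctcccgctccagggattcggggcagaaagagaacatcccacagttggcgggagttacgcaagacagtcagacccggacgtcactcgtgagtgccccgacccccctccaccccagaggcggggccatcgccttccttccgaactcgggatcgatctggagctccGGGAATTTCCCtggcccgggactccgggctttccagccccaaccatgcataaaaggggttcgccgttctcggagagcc
CCL20: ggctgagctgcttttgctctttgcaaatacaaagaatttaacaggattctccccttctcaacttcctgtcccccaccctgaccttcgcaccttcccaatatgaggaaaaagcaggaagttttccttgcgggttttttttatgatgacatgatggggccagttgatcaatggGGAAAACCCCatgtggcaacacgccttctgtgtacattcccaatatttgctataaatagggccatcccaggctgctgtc
IL6: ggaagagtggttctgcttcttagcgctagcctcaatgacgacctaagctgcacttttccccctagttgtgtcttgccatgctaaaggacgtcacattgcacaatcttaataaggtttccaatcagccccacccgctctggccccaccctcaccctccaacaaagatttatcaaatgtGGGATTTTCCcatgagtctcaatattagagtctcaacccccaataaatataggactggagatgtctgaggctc
BIRC3: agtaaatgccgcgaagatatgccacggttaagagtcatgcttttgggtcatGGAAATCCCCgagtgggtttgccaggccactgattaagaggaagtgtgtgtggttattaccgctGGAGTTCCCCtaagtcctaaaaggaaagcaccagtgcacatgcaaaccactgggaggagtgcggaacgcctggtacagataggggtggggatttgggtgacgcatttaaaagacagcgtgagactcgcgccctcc
With -1 as the last base before the start, the matches began at -79 in CXCL1, -78 in CXCL2, -79 in CCL20, -73 in IL6, and -199 and -135 in BIRC3. In CXCL1 and CXCL2 overlapping matches of both strands gave the same 11 capital letters. Promoters were found for 31 of the 40 genes called higher in Cal27, and 14 of those held a match. Of 45 promoters of the whole list 18 held one, and 9.57% of all 27305 promoters did. A match of letters is a description and does not show binding.

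Genes of mucosal secretion and innate defence had the highest list median, 3.24, with 22 of 33 called higher in Cal27 and 6 higher in FaDu. Complement component C3 had 962 and 2119 CPM in Cal27 and 6.17 and 8.50 CPM in FaDu and lipocalin LCN2, which starves bacteria of iron, 534 and 1421 CPM in Cal27 and 17.8 and 23.1 CPM in FaDu. The acute-phase protein SAA1 had 96.7 and 207 CPM in Cal27 and 0.193 and 0.567 CPM in FaDu (log2 fold change 8.64), though its reads may be shared with SAA2. PIGR, the receptor that carries IgA across epithelium, had 25.6 and 204 CPM in Cal27 and 0.193 and 0.206 CPM in FaDu. OLFM4, a secreted glycoprotein of mucosa, had 20.6 and 184 CPM in Cal27 and no count in FaDu. The Cal27 replicates were far apart for this group: 156 of 10074 genes averaging 5 CPM or more in the line differed over 2-fold between them, and 142 of the 156 were higher in replicate 2, OLFM4, PIGR and LCN2 among them. In FaDu, 38 genes did so, 36 of them higher in replicate 2. The mitochondrial share of counts was 1.53% and 2.32% in Cal27 replicates 1 and 2 and 0.969% and 1.08% in FaDu, and its part in these differences was not tested. Without Cal27 replicate 2 the secretory counts were 22 and 5, with a median of 2.67. The glutathione peroxidase GPX2 led the opposite direction, with 0.572 and 1.33 CPM in Cal27 and 45 and 66.1 CPM in FaDu.

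**Figure D3:**
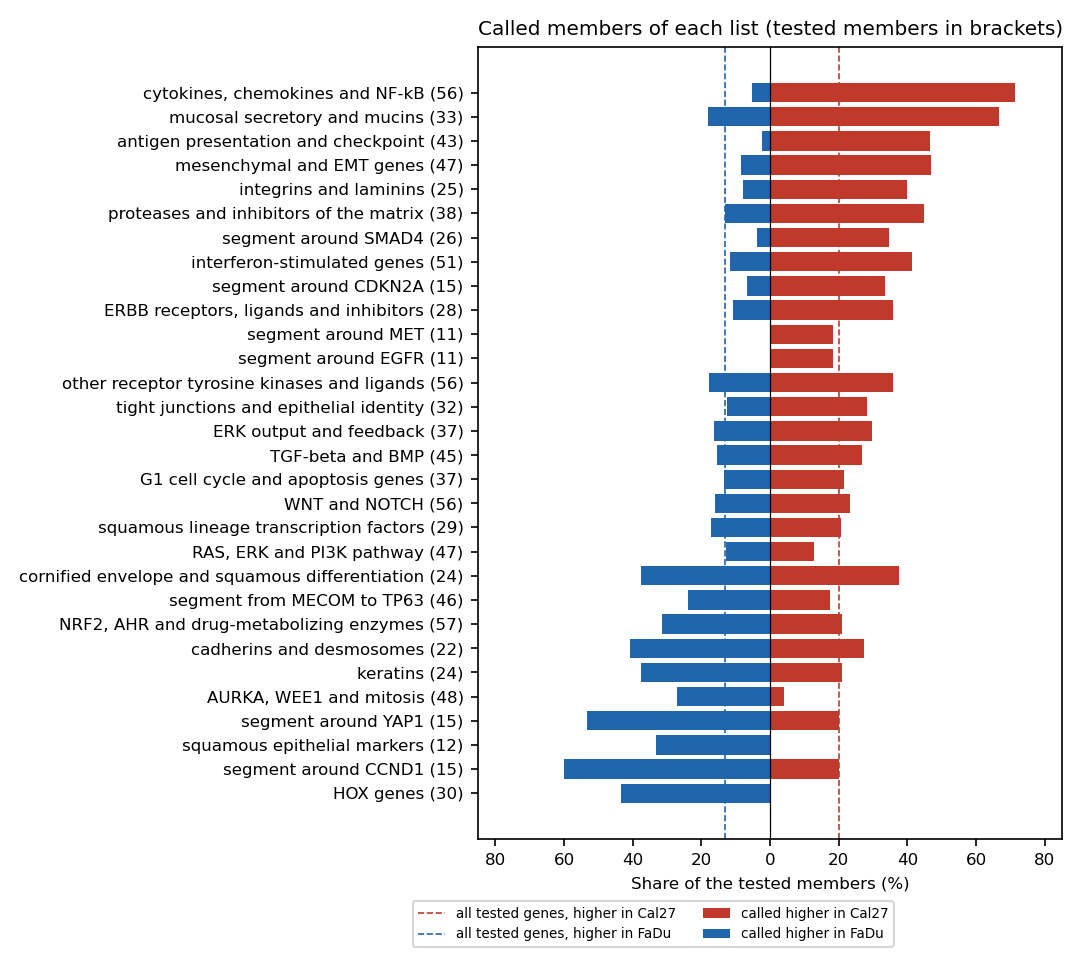
Share of tested members called higher in Cal27 (red, to the right) or higher in FaDu (blue, to the left) for each list with at least 10 tested members, whose number stands in brackets. Dashed lines mark the shares over all tested genes, 20.2% and 13.0%, and the lists of cytokines and of secretory genes reach furthest right, those of the segments around CCND1 and YAP1 and of HOX genes furthest left.

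Antigen presentation genes were called higher in Cal27 in 20 of 43 cases and higher in FaDu in 1 case, ULBP3, a call lost under spike-in scaling. They included class I HLA-B (364 and 509.6 CPM in Cal27 and 109 and 79.4 CPM in FaDu), whose reads can be lost or shared where a line's alleles depart from the reference, and the class II set with its activator CIITA (2.23 and 2.37 CPM in Cal27 and 0.337 and 0.206 CPM in FaDu) and the invariant chain CD74 (194 and 282 CPM in Cal27 and 6.99 and 4.90 CPM in FaDu). CD40, a TNF receptor family member that activates NF-kB, had 26.4 and 32.8 CPM in Cal27 and 0.193 and 0.927 CPM in FaDu. CD274, which encodes PD-L1, had 10.8 and 12.9 CPM in Cal27 and 5.44 and 7.99 CPM in FaDu and did not pass the fold limit. Interferon-stimulated genes were called in both directions, more often higher in Cal27. The guanylate-binding proteins GBP1, GBP2, GBP3 and GBP4, neighbours on chromosome 1, and MX1 and IFI27 were higher in Cal27, with 44.4 and 91.9 CPM in Cal27 and 1.06 and 3.61 CPM in FaDu of GBP2 and 67.3 and 73.1 CPM in Cal27 and 11.7 and 12.8 CPM in FaDu of MX1. OASL, IFIT1 and HERC5 were higher in FaDu, with 6.52 and 13.2 CPM in Cal27 and 50.4 and 111 CPM in FaDu of OASL and 5.38 and 9.17 CPM in Cal27 and 29.1 and 52.7 CPM in FaDu of IFIT1. In all, 21 of 51 were called higher in Cal27 and 6 higher in FaDu, beside 20.2% and 13.0% of all tested genes. The share higher in FaDu was thus near that of all tested genes.

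Enzymes that handle drugs and oxidants formed a group in which FaDu had more calls, 18 of 57 against 12 in Cal27. Of the targets of the oxidant sensor NRF2 on the list, NQO1 had 125 and 118 CPM in Cal27 and 625 and 732 CPM in FaDu (log2 fold change -2.48), GCLM, which helps make glutathione, 64.3 and 47.9 CPM in Cal27 and 221 and 241 CPM in FaDu, and ALDH3A1 8.87 and 12.6 CPM in Cal27 and 82.2 and 148 CPM in FaDu, all called higher in FaDu. Among the genes called higher in FaDu, the membrane glutathione transferase MGST1 differed most, with 1.83 and 2.48 CPM in Cal27 and 191 and 196 CPM in FaDu (log2 fold change -6.49, SE 0.161, edgeR adjusted p = 3.62e-07). GSTP1, another glutathione transferase, gave one of the 10 largest differences per transcript length towards FaDu, with 910.3 and 927 CPM in Cal27 and 2609 and 2659 CPM in FaDu. The GSTP1 call was lost under spike-in scaling. Cal27 had the aryl hydrocarbon receptor AHR and its target CYP1B1 (65.8 and 113 CPM in Cal27 and 12.5 and 11.9 CPM in FaDu and 39 and 101 CPM in Cal27 and 2.26 and 3.25 CPM in FaDu), and GSTM1, a transferase whose gene is often deleted in people, with 11.4 and 13.8 CPM against a single count in each FaDu library. Under spike-in scaling the balance turned, with 18 called higher in Cal27 and 11 higher in FaDu.

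Some genes were present in 1 line and nearly absent in the other. With at least 10 CPM in each library of a line and at most 3 counts in each library of the other, 16 genes were found in Cal27 alone and 15 in FaDu alone. Against the level of 3 counts per library, OLFM4 was at least 684-fold higher in Cal27 by the mean of its libraries and at least 138-fold higher by replicate 1 alone. By the same mean the muscle ubiquitin ligase family member TRIM55 was at least 117-fold higher, and ABO, the blood group transferase, at least 83.7-fold lower. Those in FaDu include the developmental transcription factors TLX3 (19.8 and 19.6 CPM), NKX2-5 (16.8 and 16.6 CPM) and GATA4 (13.2 and 13.4 CPM), and those in Cal27 the cytidine deaminase APOBEC3G (23.5 and 31.4 CPM) and the cofactor VGLL2 (25.5 and 29.7 CPM). The absence held in all 6 libraries of the lacking line for 5 of the 16 and 8 of the 15, among them SERPINB3 and TRIM55 in the first set and TLX3, NKX2-5, GATA4 and TWIST2 in the second.

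Some large differences were shared by neighbours on a chromosome. Among 10154 protein-coding genes averaging 5 CPM or more in either line, 31 runs of 3 or more neighbours were found. Within a run, log2 fold changes were over 2 in size in the same direction. Of the runs, 24 were higher in Cal27 and 7 higher in FaDu, with 116 genes in all. This rule was chosen after the values were seen, so the runs are a description. Some are families with shared functions, such as the CXCL chemokines, the S100A7 to S100A9 alarmins and the MMP cluster. Others join unrelated genes. The longest held 13 genes on chromosome 11 from 34150988 to 36659290 (GRCh38), all called higher in Cal27 by 2.34 to 4.86 on the log2 scale, and all 13 were called the same way in both resistant pairs. They include CD44, the hyaluronan receptor (1514 and 1326 CPM in Cal27 and 265 and 292 CPM in FaDu), catalase CAT (236 and 268 CPM in Cal27 and 22 and 33.4 CPM in FaDu), EHF and TRAF6, a ubiquitin ligase of NF-kB signalling (45.7 and 52.9 CPM in Cal27 and 6.94 and 8.76 CPM in FaDu).

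On 11q13, between 69653076 and 71252577, 6 neighbours next to CCND1 were all higher in FaDu, again in all 3 pairs of lines. CTTN, the actin regulator cortactin, had 415 and 444 CPM in Cal27 and 3496 and 3560.0 CPM in FaDu (log2 fold change -3.04, SE 0.108, edgeR adjusted p = 1.11e-06). PPFIA1, a scaffold of cell adhesions, had 112 and 119 CPM in Cal27 and 1246 and 1097 CPM in FaDu, FADD, the death receptor adaptor, 59.2 and 58.5 CPM in Cal27 and 277 and 259 CPM in FaDu, and ANO1, a calcium-activated chloride channel, 10.3 and 8.02 CPM in Cal27 and 195 and 215 CPM in FaDu. CCND1 itself had a log2 fold change of -1.79 in the parental lines, -1.51 in the afatinib-resistant pair and -0.33 in the erlotinib-resistant pair, where it was not called. Over the list for this segment, 9 of 15 were called higher in FaDu, and 3 in Cal27, which were MYEOV, NADSYN1 and DHCR7 on either side.

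On chromosome 18, between 50879049 and 51218304, the neighbours ME2, SMAD4 and MEX3C were all below 1 CPM in FaDu. ME2, the mitochondrial malic enzyme, had 58.6 and 43.5 CPM in Cal27 and 0.915 and 0.979 CPM in FaDu and MEX3C, an RNA-binding ubiquitin ligase, 35.1 and 28.2 CPM in Cal27 and 0.385 and 0.670 CPM in FaDu. The adjoining ELAC1, a tRNA-processing enzyme, had 2.63 and 3.98 CPM in Cal27 and 0 and 0.0515 CPM in FaDu. On chromosome 8 the direction was opposite: the phosphate transporter SLC20A2 had 1.14 and 0.865 CPM in Cal27 and 179.6 and 154 CPM in FaDu and its neighbour SMIM19 0.0572 and 0.115 CPM in Cal27 and 27.5 and 22.4 CPM in FaDu, with VDAC3 beside them at 69.3 and 60.2 CPM in Cal27 and 395 and 377 CPM in FaDu. On 9p21, HACD4, an enzyme of fatty acid elongation, had 23.2 and 21.7 CPM in Cal27 and 0.337 and 0.155 CPM in FaDu. All of these genes were called in the same direction in both resistant pairs.

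**Figure D4:**
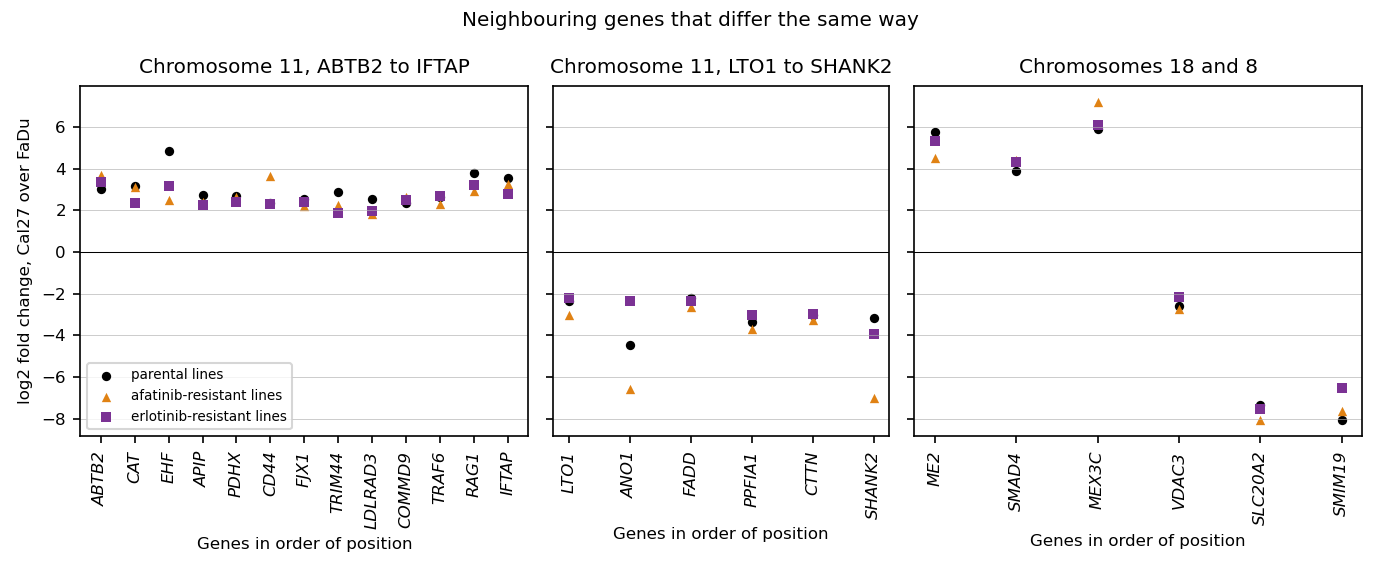
log2 fold change of Cal27 over FaDu for neighbouring genes in order of position on chromosome 11 (left and middle) and on chromosomes 18 and 8 (right), in the parental (circles), afatinib-resistant (triangles) and erlotinib-resistant (squares) pairs of lines. The 13 genes on the left lie above 0 and the 6 in the middle below 0 in all 3 pairs, and on the right the 3 genes of chromosome 18 lie above 0 and the 3 of chromosome 8 below it.

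Zinc finger genes of chromosome 19 gave another regional pattern, described after the values were seen. Of 169 tested genes with a ZNF number on this chromosome, 43 were called higher in FaDu and 23 higher in Cal27, and 36 of the 43 had a log2 fold change below -3 against 5 above 3. The 36 reached at most 0.461 CPM in a Cal27 library and 0.979 to 15 CPM in FaDu. ZNF614 had 0.286 and 0.288 CPM in Cal27 and 15 and 13.1 CPM in FaDu, ZNF525 0.114 and 0.0577 CPM in Cal27 and 13.2 and 10.6 CPM in FaDu and ZNF331 0.172 and 0.0577 CPM in Cal27 and 10.6 and 9.27 CPM in FaDu. All 36 were called the same way in the afatinib-resistant pair and in the erlotinib-resistant pair. Of 200 ZNF genes on the other autosomes, 8 had a called log2 fold change below -3 and 4 above 3. Most of these genes encode repressors with a KRAB domain, and many are near copies, so reads may be shared among them.

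Over longer distances, the running median of the log2 fold change was taken across 31 neighbouring genes averaging 5 CPM or more. It ranged from -1.47 to 1.92 over 9400 windows, with a standard deviation of 0.46. The highest window was the stretch of chromosome 11 from 28108248 to 36659290, with 30 of 31 genes above 0 and 21 called higher in Cal27. A second window on the same chromosome, from 63938959 to 65111860, had a median of 1.37 with 31 of 31 above 0. The lowest window lay on chromosome 14 from 80476983 to 93229215 (median -1.47, 23 of 31 genes called higher in FaDu), followed by the end of chromosome 11 from 123724177 to 134265855 (median -1.34, 24 genes). The 12 most extreme non-overlapping windows, 6 in each direction, had medians of the same sign in both resistant pairs. By whole chromosome, medians ran from -0.35 on chromosome 14 and -0.31 on chromosome 8 to 0.40 on chromosome 21 and 0.56 on chromosome 9. DNA copy number was not analysed here, and its part in these values was not tested.

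**Figure D5:**
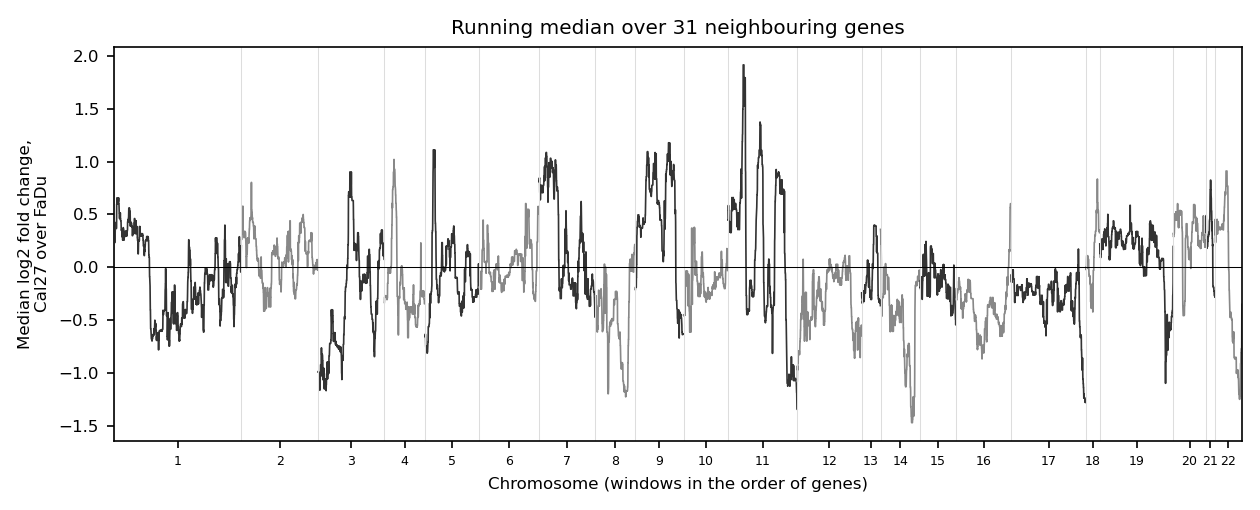
Running median over 31 neighbouring genes of the log2 fold change of Cal27 over FaDu, with windows in the order of genes along the 22 autosomes. The highest peak (1.92) lies on chromosome 11, which also holds a window of 1.37 and one of -1.34, and the lowest value (-1.47) lies on chromosome 14.

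The same line comparison in the resistant cells uses other libraries. The afatinib-resistant pair was called different at 35.3% of 14978 autosomal genes tested and the erlotinib-resistant pair at 28.0% of 13757. Of the 4789 parental calls, 2816 were called in the same direction in the afatinib-resistant pair, which is 58.8% of the parental calls and 53.3% of that pair's calls. In the erlotinib-resistant pair 2284 were, which is 47.7% and 59.2%. Both pairs shared 1739 of the parental calls (36.3%), with 914 of 2913 (31.4%) among genes higher in Cal27 and 825 of 1876 (44%) among those higher in FaDu. Among the recurring genes were KRT19 (-6.73 and -6.89 in the afatinib-resistant and erlotinib-resistant pairs), MGST1 (-6.30 and -6.82), KLK6 (-4.94 and -7.48), GAS6 (5.71 and 4.72) and IL6 (6.83 and 4.38). Others were called in only 1 of the resistant pairs or in neither. EGFR had 0.08 in the afatinib-resistant pair and 1.35 in the erlotinib-resistant pair, and HBEGF -0.30 and 1.82, each called in the erlotinib-resistant pair alone. PLAT had -0.04 and -0.40, with no call in either. VIM, not called in the parental lines, had 5.93 in the afatinib-resistant pair, and NRAS turned from -1.03 to 1.26 in the erlotinib-resistant pair. Whether these values differ between the pairs was not tested.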

How the data were processed

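Poly(A) RNA of FaDu and Cal27 cells was sequenced with ERCC spike-ins. Per the labels and the submitters' processing notes, the authors trimmed reads with Trimmomatic 0.36, aligned them to GRCh38 with STAR 2.5.2b and counted reads per Ensembl gene with featureCounts (Subread 1.5.2), and the strand setting is not given in the sources used here, so antisense and overlapping genes cannot be told apart. The deposited files hold whole-number counts, 1 file per library. The authors' normalized and differential expression tables were not used, and 0 columns could not be matched to a sample. Samples were grouped by the line and treatment labels, and replicate numbers come from the labels.

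Counts of all genes without ERCC rows were fitted with edgeR 4.0.16 (R 4.3.3) by glmQLFit and glmQLFTest on the 4 parental libraries, with TMM scaling, filterByExpr and 2 residual degrees of freedom, and p-values were adjusted by Benjamini-Hochberg over all 14954 genes tested. Of these, 14454 lie on autosomes and are reported. The resistant pairs were fitted alike. CPM are counts over the library's total on genes times its TMM factor. The libraries held 16426056 to 21867912 counts on genes, and a count of 3, taken as the floor, was 0.150 CPM in FaDu and 0.172 CPM in Cal27. The biological coefficient of variation, the spread beyond counting error, was 10.7% in FaDu and 15.5% in Cal27, so no replicates were taken as one library. Deviations of same-numbered libraries correlated at 0.0253, so the replicate numbers did not pair the samples. An exact test of single values with 2 libraries a group cannot reach 0.05.

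Named genes were the 12 largest called fold changes each way among protein-coding genes averaging 5 CPM or more and not overlapping, the 10 largest differences in RPKM each way, up to 4 called members each way of every list, a fixed set of genes central to the study, and the 4 largest replicate differences each way in a line. Members beyond this rule were named for their role after their values were seen. The genes, lists and tests were chosen with earlier results of these data known. Lists were written from general knowledge of the pathways. Alternatives were DESeq2 1.42.0, other scalings and filters, other fold and p limits, a replicate block, all 12 libraries and leaving out each library. Some items are not reported here. Promoters are from RefSeq on GRCh38.p14.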

Additional observations from a re-analysis of the deposited data

Results flagged for a closer look

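Of the 4789 genes called between the parental lines, 117 were called in the opposite direction in the afatinib-resistant pair. In the erlotinib-resistant pair 92 were. In both resistant pairs 17 were, and for 16 of these the libraries of the lines did not overlap in any pair. The parental libraries overlapped for the other, NDRG1. A lack of overlap marks little among called genes. In the parental lines it held for 4787 of all 4789 called genes and for 81.8% of all tested genes. The difference between pairs itself was not tested. In the parental lines 2 of the 16 were higher in FaDu: KLF12, a repressor of the Krüppel-like family, by a log2 fold change of -1.65, and ETV1, an ETS factor stabilised by ERK signalling, by -1.20. KLF12 had 0.815 and 1.17 CPM in Cal27 against 2.52 and 3.69 CPM in FaDu in the parental cells, and 24.7 and 25.7 CPM against 4.99 and 4.52 CPM in the afatinib-resistant cells.

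The other 14 were higher in parental Cal27 and lower in resistant Cal27 than in FaDu of the same kind. In parental Cal27, replicate 2 lay well above replicate 1 for some of them. LRG1 had 24.4 and 55.3 CPM in Cal27 against 20.1 and 17.3 CPM in FaDu. EGLN3 (18.4 and 41.0 CPM in Cal27), TMPRSS4 (11.5 and 27.2 CPM), EVA1C (0.931 and 3.32 CPM) and BCL11A were alike in this. So were PADI3 (23.9 and 45.2 CPM), ILDR1 (1.92 and 3.79 CPM) and ADGRV1 (5.99 and 11.9 CPM). The FaDu replicates of PADI3 were also apart, at 4.46 and 10.6 CPM. Replicate 1 was the higher for CERS3, TTC9 and MCF2L. Calls of the 14 without replicate 2 are not given here. BCL11A, a transcription factor of squamous and blood cells, had a parental log2 fold change of 2.56, with 4.48 and 11.0 CPM in Cal27 and 1.21 and 1.40 CPM in FaDu, and values of -5.29 and -1.21 in the afatinib-resistant and erlotinib-resistant pairs. Genes of epithelial differentiation among them were PADI3, which modifies proteins of hair and skin (2.20), CERS3, which makes the very long ceramides of the skin barrier (1.12), the membrane protease TMPRSS4 (1.87) and the tricellular junction protein ILDR1 (2.29). CERS3 was low in all pairs, with 2.33 and 1.63 CPM in Cal27 and 0.873 and 0.935 CPM in FaDu in the parental cells. The guanine deaminase GDA had a parental log2 fold change of 1.80 and the oxygen-dependent hydroxylase EGLN3 had 1.19. The remaining values were 1.04 for BSPRY, 1.08 for LRG1, 1.12 for TTC9, 1.25 for PCSK5, 1.498 for ADGRV1, 1.61 for MCF2L and 2.21 for EVA1C.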

How the results depend on the processing

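The 4789 calls came to 4346 with DESeq2, 4782 with upper-quartile scaling, 5832 with spike-in scaling and 4564 with no filter. They were 2851 against a fold change of 2 by glmTreat and 8770 with no fold limit. Leaving out each library gave 4112 to 4744 calls, 428 to 469 called members of fixed gene lists (476 with all libraries) and 214 to 223 of the 230 called named genes. With at least 10 counts in every library, which drops genes at 0 in a line, 144 named genes were called. The replicate block gave 4804 calls, and the numbers do not pair the samples. The resistant pairs had 4887 and 3441 calls with DESeq2. Log2 fold changes that changed sign all belonged to genes that were not called. Under spike-in scaling they were 0.39 for ERBB3, 0.12 for HRAS, 0.38 for PIK3CA, 0.0188 for SNAI2, 0.52 for AURKA, 0.17 for SMAD2, 0.58 for F13A1, 0.39 for KRT14, 0.18 for TMEM40, 0.57 for SLAMF7 and 0.17 for CXCL9. Under upper-quartile scaling they were 0.0218 for F13A1 and 0.0174 for SLAMF7, and with the replicate block 0.74 for SLAMF7 and 0.69 for CXCL9. Without 1 library, values ranged from -6.12 to 2.04 for F13A1, -0.99 to 3.88 for SLAMF7, -1.44 to 10.15 for CXCL9, -0.95 to 0.71 for KRT14, -0.58 to 0.10 for ERBB3, -0.49 to 0.0262 for PIK3CA, -0.13 to 0.0169 for AURKA, -0.51 to 1.08 for SPP1, -0.29 to 3.46 for CP, -1.17 to 0.12 for TMEM40 and -0.38 to 2.996 for FOS. The cause was not tested. With 2 libraries a line, a library left out leaves 1 in that line, whose spread is taken from the other.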
